A study of Mus musculus with 15 samples.

Results

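The genes described here are 26 that make cholesterol or answer to its level in mouse liver: 19 enzymes that lead from acetyl-CoA to cholesterol, with the branch to geranylgeranyl diphosphate, and 7 genes of sterol control, uptake, storage and other targets of SREBP2. They were chosen by name, as members of a known pathway, and all 26 were found among the 25731 genes with an estimated count. Of these, 25 passed the filter on low counts and stood among the 13967 genes tested. Npc1l1 did not pass it. Other genes of the pathway that are not in this set were not analysed here.

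Livers of C57BL/6 mice, an inbred laboratory strain, were taken after 3 days of chow, ketogenic or high-fat feeding, and total RNA was sequenced in 5 libraries for each. Mice on either fat-rich diet were 12 weeks old. The sources used here do not state the age of the chow mice, the sex of any mouse or what the diets contained. The labels name no mutation and no drug. Each library was taken as 1 mouse, which the labels do not state. The p-values weigh diet differences against the spread between these libraries.

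Cholesterol is built from acetyl-CoA through mevalonate, squalene and lanosterol, mostly by enzymes of the endoplasmic reticulum, and the liver is a main site of this synthesis. The transcription factor SREBP2, made from the gene Srebf2, is held in that membrane by SCAP and the Insig proteins while sterols are plentiful. When sterols run low it moves to the Golgi, is cut there, and its free end enters the nucleus and switches on nearly all genes of the pathway together, as well as Insig1 and Srebf2 itself.

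Depth ran from 30121672 to 50914494 summed estimated counts per library, with a common biological coefficient of variation of 0.1306. Over all genes tested, edgeR's quasi-likelihood test called 2258 higher and 2038 lower on the ketogenic diet than on chow, 1159 higher and 1023 lower on the high-fat diet than on chow, and 1826 higher and 1818 lower on the ketogenic than on the high-fat diet, at a Benjamini-Hochberg adjusted p of 0.05. Higher calls made up 52.6% of those for the ketogenic diet against chow and 50.1% of those against the high-fat diet, but 68.5% and 70.6% when libraries were scaled by total count alone. Levels below are normalised CPM, counts brought to a common library total with edgeR's TMM factors, and fold changes are log2 values of the fit with their standard error (SE). The liver label fits the hepatocyte markers Alb, Hnf4a, Cps1, Tat and Cyp2e1, which summed to 63566 to 80283 CPM on chow, 61610 to 72479 on the high-fat diet and 79576 to 87067 on the ketogenic diet. Summed markers of pericentral hepatocytes ran from 953 to 1171 CPM on chow, from 1219 to 1575 on the high-fat diet and from 1659 to 2035 on the ketogenic diet. Of these 5 markers, 4 rose on the ketogenic diet against chow, where 16.2% of all genes rose and 14.6% fell. Of 6 markers of periportal hepatocytes, 3 fell and 1 rose in that comparison. All 3 erythroid and all 4 B cell markers fell in that comparison, the former summing to 492 to 706 CPM on chow, 293 to 782 on the high-fat diet and 236 to 383 on the ketogenic diet, the latter to at most 12.8 CPM anywhere. The part of these cell types in the results below was not tested. In whole liver, fewer cells of a type and less RNA per cell cannot be told apart.

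In each diet 1 library was the highest in nearly all enzymes. The counts of each comparison are given below with and without the libraries concerned. Ketogenic replicate 6 had the highest CPM of its 5 libraries in 18 of the 19 enzymes, as did high-fat replicate 9 and chow replicate 18. Over all genes tested, those libraries were the highest of their diet in only 18.8%, 23.9% and 22.2% of genes. The CPM of the 19 enzymes summed to 3646 in ketogenic replicate 6 and to 2498 to 2652 in the other 4 ketogenic libraries. It was 3136 in high-fat replicate 9 and 2458, 1966, 1677 and 1631 in replicates 10, 11, 12 and 14, a graded series in normalised CPM. As TPM, which divides counts by effective transcript length and takes no TMM factors, the sum was not graded. It was 1372 in replicate 9 and 1000, 984, 1007 and 1022 in replicates 10, 11, 12 and 14. On chow the CPM of the enzymes summed to 4190 in replicate 18 and 2825 to 3366 in the rest. These libraries ranked 1, 2 and 4 of 5 in the total count of their diet, and ketogenic replicate 6 was the deepest of all, at 50914494; the part of depth was not tested. The median coefficient of variation of the enzymes was 20.6% for chow, 29.0% for high-fat and 18.7% for ketogenic feeding, against 11.3%, 11.9% and 9.95% over all genes tested. Mvd, which decarboxylates mevalonate diphosphate, varied most on the high-fat diet, at 50.9%. The highest library was thus shared by nearly all enzymes within each diet, as the plot of enzymes by library shows. The lowest library was less widely shared: among ketogenic libraries replicates 3 and 4 were the lowest in 6 enzymes each. On chow replicate 17 was the lowest in 10 and replicate 19 in 6. On the high-fat diet replicate 14 was the lowest in 11 and replicate 12 in 7.

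**Figure D1:**
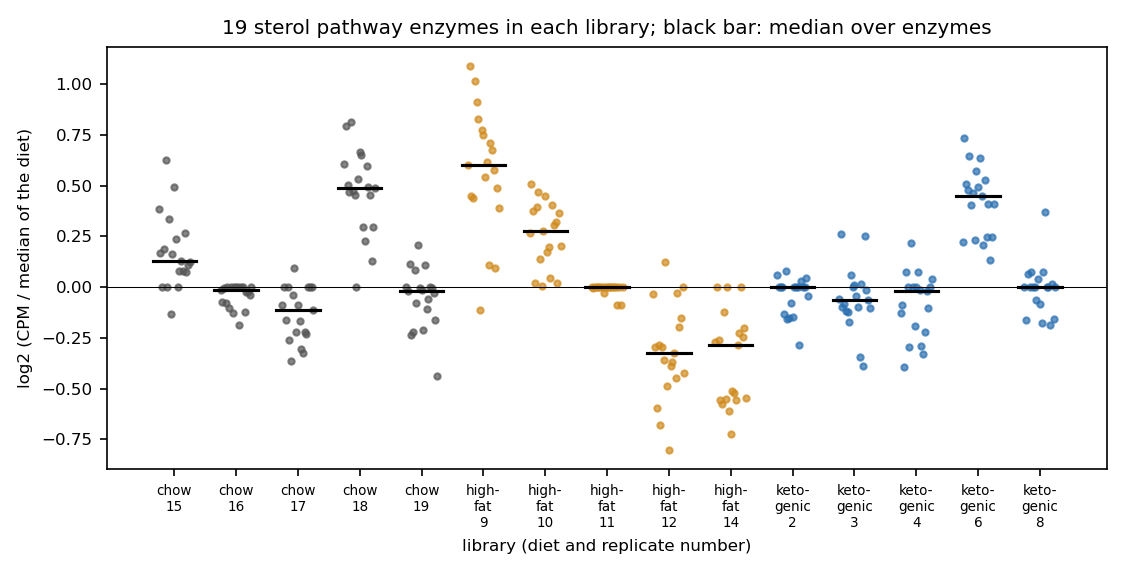
Each point is 1 of the 19 enzymes in 1 of the 15 libraries; the y axis is the log2 ratio of its normalised CPM to the median of its diet, and the black bar is the median over enzymes. The points of chow replicate 18, high-fat replicate 9 and ketogenic replicate 6 lie above those of the other libraries of their diet in 18 of 19 enzymes each.

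Where sterol genes differed between the high-fat diet and chow, nearly all were lower on the high-fat diet. Of the 25 tested, 8 fell, 1 rose and 16 did not pass, where 7.32% of all genes tested fell and 8.3% rose. The median log2 fold change was -0.49 over the 25 genes and 0.01 over all genes tested, and 21 of the 25 were below 0, as they were under each other scaling tried. The genes that fell were Acat2, Pmvk, Fdps, Lss, Sc5d, Insig1, Rdh11 and Soat2, and Srebf2 rose. In 6 of them (Acat2, Pmvk, Sc5d, Insig1, Rdh11 and Soat2) every high-fat library lay below every chow library, a separation seen downward in 4.81% of all genes. Without high-fat replicate 9 the count of sterol genes that fell was 13, the added ones being Hmgcs1, Idi1, Fdft1, Cyp51 and Nsdhl. The count over all genes was then 1313 (1023 with all libraries). Without high-fat replicate 11, 12 or 14, 6 sterol genes fell each time, since Lss and Insig1 did not pass. The median log2 fold changes were then -0.45, -0.38 and -0.36, and 776, 705 and 766 of all genes fell. Without chow replicate 18, 6 sterol genes fell as well, since Lss and Insig1 did not pass, and the median log2 fold change was -0.36.

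On the ketogenic diet more sterol genes fell than rose against chow. Of the 19 enzymes 7 fell and 1 rose. Of the 25 genes, 9 fell, 3 rose and 13 did not pass, where 14.6% of all genes fell and 16.2% rose. Acat2, Pmvk, Fdps, Lss, Tm7sf2, Ebp, Sc5d, Insig1 and Rdh11 fell, and Srebf2, Hsd17b7 and Mylip rose. The median log2 fold change of the 25 was -0.10, against -0.01 over all genes tested, and 15 lay below 0 (13 under total-count scaling). Without ketogenic replicate 4 only 5 genes fell, since Acat2, Lss, Tm7sf2 and Ebp no longer passed. Without ketogenic replicate 6, 9 fell, 2 rose and 18 lay below 0, Mylip no longer passing. Without chow replicate 18, 6 fell and 2 rose, with Acat2, Lss, Tm7sf2 and Mylip lost. Every ketogenic library lay below every chow library for Pmvk, Fdps, Ebp, Sc5d, Insig1 and Rdh11, and above them for Srebf2, separations seen in 10.1% and 12.2% of all genes.

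Between the fat-rich diets 5 genes were higher on the ketogenic diet (Idi1, Cyp51, Hsd17b7, Srebf2 and Soat2), 1 was lower (Ebp) and 19 did not pass, where 13.1% of all genes were higher and 13.0% lower. The median log2 fold change was 0.20, against -0.02 over all genes tested. Idi1, Srebf2 and Soat2 did not overlap between the libraries of these diets, with the ketogenic ones higher, as was so for 9.3% of all genes. Without high-fat replicate 9, 10 genes were higher on the ketogenic diet, with Acat2, Hmgcs1, Mvk, Fdft1 and Nsdhl added, and Ebp did not pass. Without ketogenic replicate 6, 4 were higher and 4 lower (Ggps1, Ebp, Insig1 and Rdh11), with Cyp51 lost. Without chow replicate 18, 7 were higher and 1 lower, with Hmgcs1 and Mvk added. The comparisons with chow share the same 5 chow libraries, so a gene that was high or low there is so in both. The 7 genes that fell in both were Acat2, Pmvk, Fdps, Lss, Sc5d, Insig1 and Rdh11, and 10 of the 25 passed in no comparison. How many of all genes fell in both, or passed in no comparison, was not counted here, so neither count can be set against a share over all genes.

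**Figure D2:**
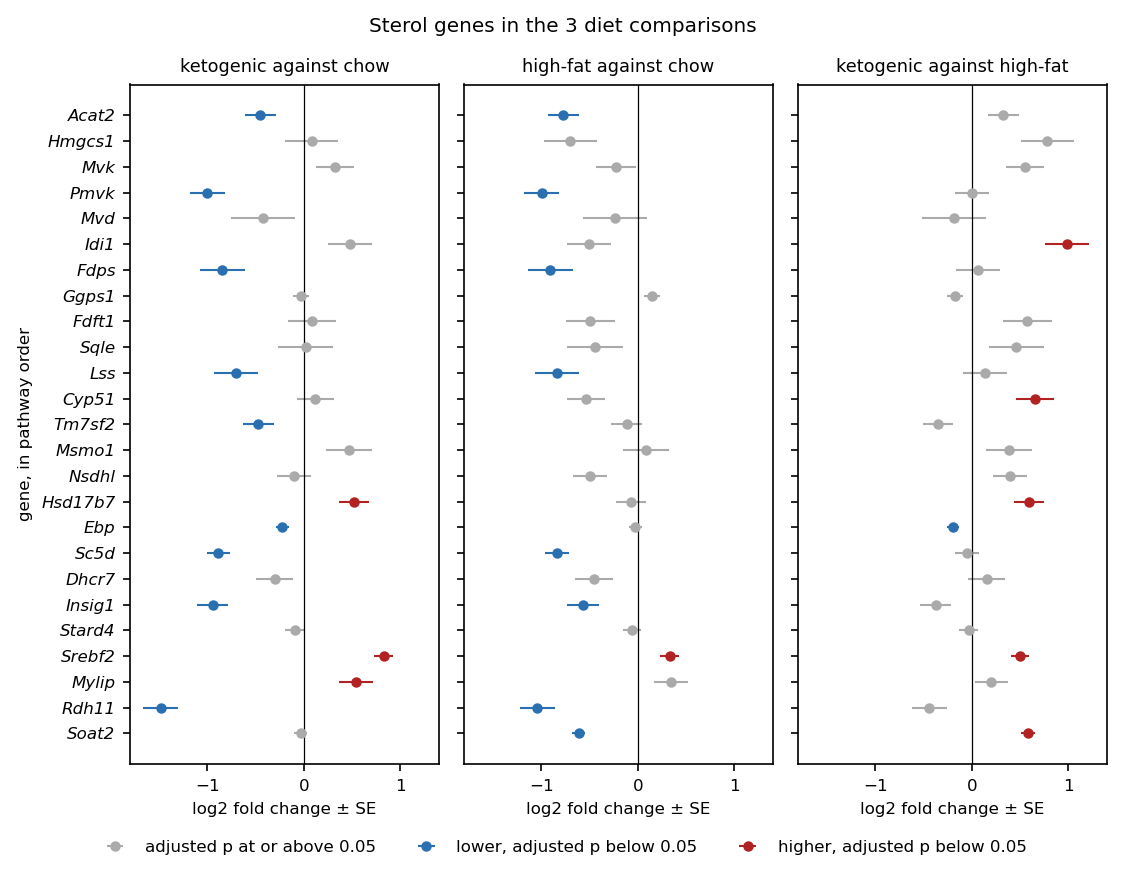
Log2 fold change with its SE (x axis) for the 25 genes tested (y axis, in pathway order) in the 3 diet comparisons, with the colour giving the side of the 0.05 threshold. Blue marks genes called lower and red genes called higher. The ketogenic diet against chow has 9 blue and 3 red points, and the high-fat diet against chow 8 and 1. The comparison of the ketogenic with the high-fat diet has 5 red points and 1 blue.

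The control genes moved in opposite directions. Srebf2 (ENSMUSG00000022463.8, chromosome 15, 82147181 to 82205379, plus strand, GRCm38.p6) encodes SREBP2. Its CPM was 35.2, 37.1, 33.3, 43.0 and 27.9 in chow replicates 15 to 19. It was 45.6, 49.8, 47.2, 39.1 and 40.3 in high-fat replicates 9, 10, 11, 12 and 14, and 59.6, 59.6, 58.8, 71.6 and 64.1 in ketogenic replicates 2, 3, 4, 6 and 8. All ketogenic libraries were above all others, while the high-fat range overlapped that of chow through chow replicate 18. Srebf2 rose on the ketogenic diet by 0.83 ± 0.097 against chow (1.78-fold, adjusted p = 4.81e-06) and by 0.50 ± 0.096 against the high-fat diet (adjusted p = 0.00108). Its rise on the high-fat diet against chow was 0.33 ± 0.097 (adjusted p = 0.0281), and it did not pass without high-fat replicate 10 or 11 or chow replicate 15, 17 or 19, where adjusted p was 0.0568 to 0.0691, nor with an offset for effective length (adjusted p = 0.0842). Its order of means was ketogenic, high-fat, chow, which only Mylip and 1 other gene, Msmo1, shared.

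Insig1 (ENSMUSG00000045294.11, chromosome 5, 28071363 to 28078662, plus strand) encodes the membrane protein that holds SCAP and SREBP in the endoplasmic reticulum, and is a classical SREBP2 target. In the chow libraries, in the order given above, it measured 513, 428, 429.8, 472 and 482 CPM. High-fat libraries had 392, 368, 287, 295 and 225 CPM, and ketogenic libraries had 205, 203, 231, 356 and 213. Both fat-rich diets lay below chow in every library, and ketogenic replicates 4 and 6 reached into the high-fat range. Insig1 fell by 0.95 ± 0.16 on the ketogenic diet against chow (1.93-fold, adjusted p = 4.73e-04) and by 0.57 ± 0.16 on the high-fat diet (adjusted p = 0.0296). The latter did not pass when any of high-fat replicates 11, 12 and 14 or chow replicates 15, 18 and 19 was left out (adjusted p 0.0536 to 0.0705). The difference between the fat-rich diets, -0.38 ± 0.16, did not pass with all libraries (adjusted p = 0.104) and passed without ketogenic replicate 6 (adjusted p = 0.00403).

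**Figure D3:**
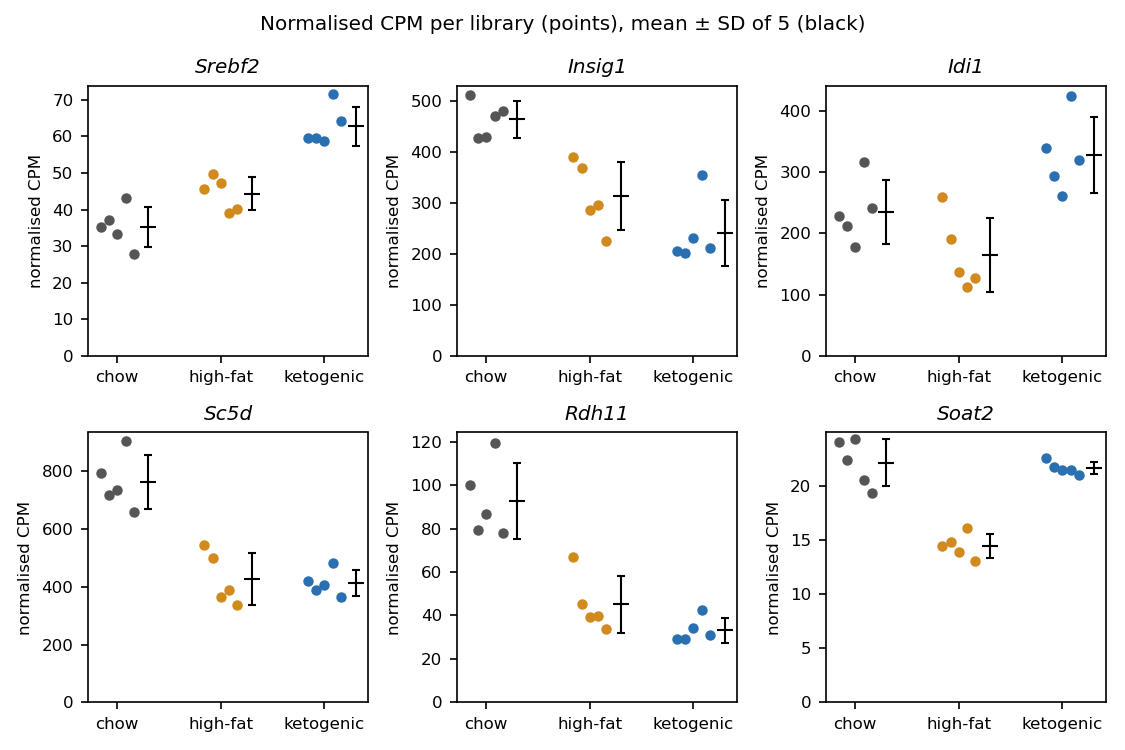
Normalised CPM (y axes, from 0) of 6 genes in each of the 15 libraries (points, by diet), with mean ± SD of 5 in black. The means of Srebf2 increase from chow through high-fat to ketogenic and those of Insig1 and Rdh11 decrease; Sc5d is low on both fat-rich diets, Idi1 is higher on the ketogenic than on the high-fat diet, and Soat2 is low on the high-fat diet.

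SREBP2 binds short sterol response elements near the starts of its target genes, usually beside sites for NF-Y and Sp1, so the promoters of the genes were searched on both strands. RefSeq promoters of build GRCm38.p6, from 250 bases before to 50 after the start, were found for 21 of the 26 genes (Fdps, Fdft1, Sqle, Stard4 and Soat2 are not in the table used). The element core CACNCCAC was in promoters of 3 of the 21 genes (Acat2, Hmgcs1 and Insig1) and in those of 7.12% of all genes in the table. CCAAT, the letters NF-Y binds, was in 20 of the 21, all but Acat2, and in 41.1% of all genes. GGGCGG, the letters of an Sp1 site, was in 17 of the 21 and in 38.2% of all genes. A shortened core, CACNCCA, which lies within the longer one and was chosen after the sequences were seen, was also in Msmo1 and Srebf2, making 5 of 21 against 20.6% of all genes. No other matches of different motifs overlapped in these promoters. These are matches of letters and no measure of binding.

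The promoters holding the element core are shown with that of Srebf2, added after values were seen because it had the smallest adjusted p, so that the letters can be set beside the fold changes; capitals mark the core or shortened core, which on the opposite strand reads GTGGCGTG. Their positions are Insig1 chr5:28071162-28071461 plus strand, Hmgcs1 chr13:119690101-119690400 plus strand, Acat2 chr17:12960676-12960975 minus strand and Srebf2 chr15:82147019-82147318 plus strand.
Insig1: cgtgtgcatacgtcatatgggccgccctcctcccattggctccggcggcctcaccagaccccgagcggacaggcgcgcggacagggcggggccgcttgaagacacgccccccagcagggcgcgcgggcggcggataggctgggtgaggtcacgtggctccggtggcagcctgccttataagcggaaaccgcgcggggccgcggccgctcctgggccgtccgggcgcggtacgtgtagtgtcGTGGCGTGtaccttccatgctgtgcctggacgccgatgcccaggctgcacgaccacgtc
Hmgcs1: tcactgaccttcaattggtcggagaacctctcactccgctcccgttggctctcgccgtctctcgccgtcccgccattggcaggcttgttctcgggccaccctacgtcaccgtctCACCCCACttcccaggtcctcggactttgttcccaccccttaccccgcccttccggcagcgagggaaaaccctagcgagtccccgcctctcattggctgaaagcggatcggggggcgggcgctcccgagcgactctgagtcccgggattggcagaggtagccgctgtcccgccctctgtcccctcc
Acat2: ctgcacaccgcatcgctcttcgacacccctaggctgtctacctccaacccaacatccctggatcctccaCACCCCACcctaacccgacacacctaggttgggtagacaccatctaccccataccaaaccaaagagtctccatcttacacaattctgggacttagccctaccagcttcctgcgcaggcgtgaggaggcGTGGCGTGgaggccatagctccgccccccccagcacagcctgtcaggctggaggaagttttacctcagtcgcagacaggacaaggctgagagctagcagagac
Srebf2: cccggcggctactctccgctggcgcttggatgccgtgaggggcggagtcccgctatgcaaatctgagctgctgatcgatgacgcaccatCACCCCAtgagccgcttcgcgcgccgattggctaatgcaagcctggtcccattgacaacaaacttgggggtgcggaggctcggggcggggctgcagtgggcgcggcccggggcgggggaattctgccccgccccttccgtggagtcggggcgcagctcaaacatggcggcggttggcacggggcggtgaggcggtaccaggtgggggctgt
Counted to its first base, the match starts 9 bases before the start of transcription in Insig1, 136 before it in Hmgcs1 (a RefSeq start whose first 25 transcribed bases are in no GENCODE M21 transcript of that gene), and 181 and 53 before it in Acat2, and the shortened core starts 161 bases before it in Srebf2. The 5 genes with a core or shortened core did not share a direction against chow on the ketogenic diet: Insig1 and Acat2 fell and Srebf2 rose. Hmgcs1 measured 0.08 ± 0.27 and Msmo1, whose promoter is not printed, 0.47 ± 0.24, and neither passed. The shortened core was chosen after the sequences were seen, so this is a description only.

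Among the mevalonate steps, Acat2, Pmvk and Fdps fell on both fat-rich diets, and Idi1 distinguished those diets from each other. Pmvk (ENSMUSG00000027952.16, chromosome 3, 89454541 to 89469013, plus strand), which adds the second phosphate to mevalonate, measured 62.3, 51.9, 54.8, 75.9 and 46.4 CPM on chow, 40.6, 30.4, 29.9, 24.5 and 20.3 on the high-fat diet and 27.0, 25.5, 28.5, 37.7 and 27.0 on the ketogenic diet. No library of either fat-rich diet reached the lowest on chow. It fell by 0.999 ± 0.18 on the ketogenic diet (adjusted p = 7.33e-04) and by 0.999 ± 0.18 on the high-fat diet (adjusted p = 0.00255), and its mean was 29.1 CPM on each fat-rich diet.

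Fdps (ENSMUSG00000059743.12, chromosome 3, 89093588 to 89101959, minus strand) makes farnesyl diphosphate, the branch point to sterols, dolichol, ubiquinone and protein prenylation. Chow libraries held 401, 318, 309.8, 435 and 302 CPM, high-fat libraries 313, 194, 176, 138 and 120.1, and ketogenic libraries 166, 164, 215, 255 and 185. High-fat replicate 9 alone among the fat-rich libraries lay within the chow range. The falls were 0.84 ± 0.23 on the ketogenic diet (adjusted p = 0.0138) and 0.91 ± 0.23 on the high-fat diet (adjusted p = 0.0188). An overlapping gene model on the same strand, Gm43738, shares 24.6% of the 31-base words of Fdps, so reads could be divided between them.

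Acat2, the cytosolic thiolase that joins acetyl-CoA units, had 138, 105, 99.9, 161 and 106 CPM on chow, 98.2, 77.8, 64.6, 63.1 and 53.6 on the high-fat diet and 91.6, 84.4, 80.5, 103 and 87.9 on the ketogenic diet. The high-fat libraries were all below chow, and 1 ketogenic library, replicate 6, overlapped it. It fell by 0.77 ± 0.16 on the high-fat diet (adjusted p = 0.00603) and by 0.45 ± 0.16 on the ketogenic diet (adjusted p = 0.0476), the latter failing the threshold when any of 9 libraries was left out (adjusted p 0.0546 to 0.118). Its near copy Acat3 shares 43.75% of its 31-base words, and reads could be divided between them.

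Idi1 (ENSMUSG00000058258.14, chromosome 13, 8885501 to 8892451, plus strand) interconverts the isoprene units from which all later products are built. It measured 228, 212, 177, 317 and 242 CPM on chow, 259, 191, 138, 112 and 127 on the high-fat diet and 339, 294, 262, 425 and 321 on the ketogenic diet. Every ketogenic library was above every high-fat library, and chow lay between them with overlap on both sides. The difference between the fat-rich diets was 0.99 ± 0.23 (1.99-fold, adjusted p = 0.00657), while neither comparison with chow passed (0.48 ± 0.23, adjusted p = 0.128, and -0.51 ± 0.23, adjusted p = 0.147).

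Hmgcs1, the cytosolic synthase that commits acetyl groups to the pathway, measured 510.4, 432, 454, 787 and 449 CPM on chow, 541, 363, 254, 208 and 255 on the high-fat diet and 488, 586, 458, 813 and 436 on the ketogenic diet. The 3 ranges overlapped, and in each diet the library that was the highest in most enzymes was the highest here too. The difference between the fat-rich diets was 0.78 ± 0.27 (adjusted p = 0.0524) and passed without high-fat replicate 9 (adjusted p = 0.00633). Mvk, which adds the first phosphate to mevalonate, ranged from 8.61 to 13.6 CPM on chow, from 5.67 to 11.7 on the high-fat diet and from 9.52 to 17.8 on the ketogenic diet, and its difference between the fat-rich diets was 0.55 ± 0.20 (adjusted p = 0.0575), which passed in DESeq2 (adjusted p = 0.0166). Mvd ranged from 11.3 to 23.7, from 7.59 to 24.6 and from 10.1 to 17.3 CPM in the same order and passed in no comparison. Ggps1, which makes geranylgeranyl diphosphate on a branch away from sterols, ranged from 9.82 to 13.6 CPM over all 15 libraries and passed in none; high-fat replicate 9 was its lowest high-fat library.

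In the steps from squalene to lanosterol 1 of 3 enzymes passed against chow, falling on both fat-rich diets. Over all genes 14.6% fell on the ketogenic and 7.32% on the high-fat diet. Lss, the cyclase that folds squalene epoxide into lanosterol, had 93.9, 79.7, 70.9, 125 and 68.8 CPM on chow, 70.9, 54.8, 48.6, 37.2 and 34.1 on the high-fat diet and 49.3, 47.9, 52.0, 76.5 and 43.6 on the ketogenic diet. Replicates 9 and 6 of the fat-rich diets reached into the chow range, and the other 8 fat-rich libraries lay below it. It fell by 0.84 ± 0.23 on the high-fat diet (adjusted p = 0.0275) and by 0.70 ± 0.23 on the ketogenic diet (adjusted p = 0.0329). These calls were lost when 1 of 5 libraries was left out for the high-fat diet (adjusted p 0.0575 to 0.0691) and 1 of 6 for the ketogenic diet (0.0658 to 0.0842). Fdft1, squalene synthase, ranged from 95.3 to 161 CPM on chow, from 53.0 to 139 on the high-fat diet and from 105 to 178 on the ketogenic diet. Sqle, the epoxidase before Lss, ranged from 68.2 to 115, from 34.6 to 101 and from 74.6 to 116 CPM in that order. Neither passed in any comparison with all libraries and TMM factors, though Fdft1 was higher on the ketogenic than on the high-fat diet with total-count scaling (adjusted p = 0.0451). Fdft1 shares 17.61% of its 31-base words with Ctsb, whose exons it overlaps on the opposite strand.

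Of the 8 enzymes from lanosterol to cholesterol, 3 fell and 1 rose on the ketogenic diet against chow (14.6% and 16.2% of all genes), and 1 fell on the high-fat diet (7.32% of all genes). Sc5d (ENSMUSG00000032018.14, chromosome 9, 42251595 to 42264256, minus strand), a desaturase near the end of the pathway, gave the firmest fall among the enzymes. It measured 794, 717, 737, 906 and 659.6 CPM on chow, 544, 500.4, 366, 389 and 338 on the high-fat diet and 420.1, 390.1, 407, 483 and 365 on the ketogenic diet. The lowest chow library, at 659.6, was above the highest on a fat-rich diet, at 544. Sc5d fell by 0.88 ± 0.12 on the ketogenic diet (1.85-fold, adjusted p = 3.46e-05) and by 0.84 ± 0.12 on the high-fat diet (1.78-fold, adjusted p = 3.09e-04).

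Hsd17b7, a reductase that acts with Msmo1 and Nsdhl to remove methyl groups from lanosterol products, was the enzyme that rose against chow. It had 70.6, 57.7, 58.7, 80.4 and 58.4 CPM on chow, 83.2, 69.6, 52.4, 48.6 and 55.7 on the high-fat diet and 86.8, 104, 85.6, 115 and 76.4 on the ketogenic diet. Only ketogenic replicate 8 lay within the range of chow, and the high-fat range spanned that of chow. It rose by 0.52 ± 0.15 on the ketogenic diet against chow (adjusted p = 0.0188) and by 0.60 ± 0.15 against the high-fat diet (adjusted p = 0.0113). Msmo1, the oxidase of that trio, ranged from 126 to 222 CPM on chow, from 112 to 251 on the high-fat diet and from 173 to 315 on the ketogenic diet. Nsdhl, its dehydrogenase, ranged from 61.8 to 102, from 40.7 to 76.0 and from 56.0 to 87.0 CPM. Neither passed in any comparison in edgeR with TMM factors and all libraries, but Nsdhl was lower on the high-fat diet than on chow in DESeq2 (adjusted p = 0.0173) and with total-count scaling (adjusted p = 0.0459), and higher on the ketogenic than on the high-fat diet with the latter (adjusted p = 0.0375).

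Cyp51, the demethylase that acts on lanosterol itself, measured 189, 166, 153, 232 and 204 CPM on chow, 193, 144, 126, 97.5 and 87.8 on the high-fat diet and 192, 179, 189, 261 and 202 on the ketogenic diet. The ketogenic and high-fat libraries overlapped through high-fat replicate 9 alone. Cyp51 was higher by 0.66 ± 0.19 on the ketogenic than on the high-fat diet (adjusted p = 0.0238), which did not pass without ketogenic replicate 6 or high-fat replicate 11 or 12 (adjusted p 0.0515 to 0.0575). Ebp, an isomerase that shifts a bond in the sterol ring, was the steadiest enzyme on chow, with 176, 165, 167, 183 and 164 CPM. It had 185, 176, 174, 157 and 147 on the high-fat diet and 146, 144, 135, 160.0 and 147 on the ketogenic diet. All ketogenic libraries were below chow, by a small margin: the fall was 0.22 ± 0.067 (adjusted p = 0.0171), with adjusted p = 0.0506 when ketogenic replicate 4 was left out. Against the high-fat diet it was lower by a log2 change of -0.20 ± 0.067 (adjusted p = 0.0377), a call lost when any of 7 libraries was left out (adjusted p 0.0630 to 0.0987).

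Tm7sf2, a sterol reductase, had 91.1, 86.3, 68.9, 101 and 79.9 CPM on chow, 92.5, 88.5, 85.9, 68.7 and 58.4 on the high-fat diet and 61.0, 48.0, 49.9, 70.4 and 78.9 on the ketogenic diet. Ketogenic replicates 6 and 8 overlapped chow and the other 3 were below it. It fell by 0.47 ± 0.16 on the ketogenic diet against chow (adjusted p = 0.0341), but not when any of 6 libraries was left out (adjusted p 0.0605 to 0.0832), and 12.83% of its 31-base words are shared, mainly with the overlapping gene Vps51. Dhcr7, the reductase of the final step, ranged from 72.3 to 137 CPM on chow, from 51.4 to 98.3 on the high-fat diet and from 72.5 to 103 on the ketogenic diet. It passed in no comparison in edgeR, and was lower on the high-fat diet than on chow in DESeq2 (adjusted p = 0.0449).

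**Figure D4:**
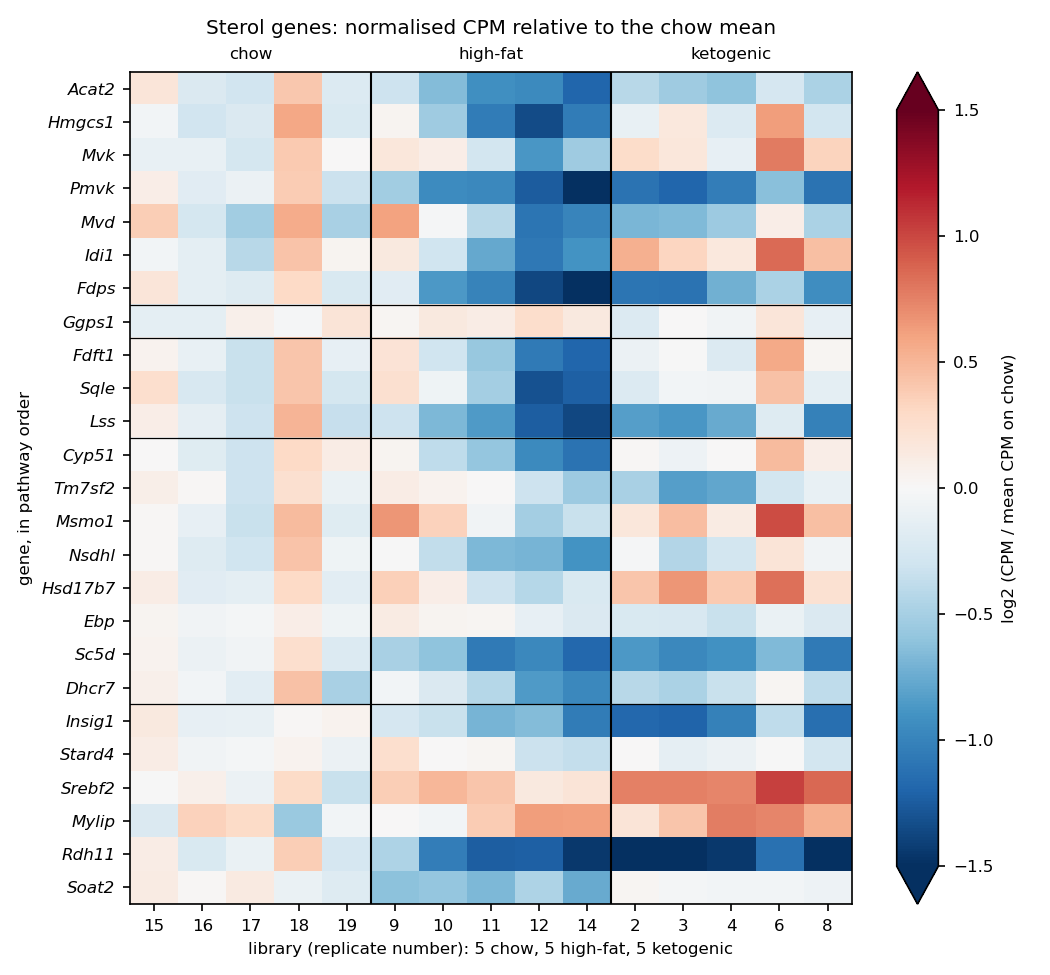
Log2 ratio of normalised CPM to the chow mean (colour) for the 25 genes tested (rows, in pathway order, lines between role groups) in 15 libraries (columns, by diet). Pmvk, Fdps, Lss, Sc5d, Insig1 and Rdh11 are below the chow mean in all libraries of both fat-rich diets, high-fat replicates 12 and 14 are blue down most of the pathway, and Srebf2 is red on the ketogenic diet.

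Beyond the enzymes, Rdh11 and Soat2 gave the clearest differences. Rdh11 (ENSMUSG00000066441.14, chromosome 12, 79174337 to 79192293, minus strand) encodes a retinal reductase whose gene answers to SREBPs. It measured 99.8, 79.4, 86.7, 119.6 and 78.1 CPM on chow, 67.1, 45.1, 39.5, 39.7 and 34.0 on the high-fat diet and 29.0, 29.1, 34.1, 42.6 and 31.01 on the ketogenic diet. Both fat-rich diets lay wholly below chow and overlapped each other. With falls of 1.48 ± 0.18 on the ketogenic diet (2.79-fold, adjusted p = 3.53e-05) and 1.04 ± 0.18 on the high-fat diet (2.06-fold, adjusted p = 0.00219), it had the largest change of the 25 genes in each comparison with chow.

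Soat2 (ENSMUSG00000023045.13, chromosome 15, 102150526 to 102163469, plus strand) makes cholesteryl esters for storage and lipoproteins in hepatocytes. Its CPM was 24.0, 22.4, 24.4, 20.6 and 19.3 on chow, 14.5, 14.9, 13.9, 16.1 and 13.1 on the high-fat diet and 22.5, 21.7, 21.4, 21.5 and 21.1 on the ketogenic diet. The high-fat libraries were all below those of both other diets, and the ketogenic values lay within the chow range. Soat2 fell by 0.61 ± 0.070 on the high-fat diet against chow (adjusted p = 2.6e-05) and was higher by 0.58 ± 0.070 on the ketogenic than on the high-fat diet (adjusted p = 1.09e-05), while the ketogenic diet against chow gave -0.03 ± 0.069 (adjusted p = 0.758). Unlike in most enzymes, neither high-fat replicate 9 nor ketogenic replicate 6 had the highest Soat2 level of its diet.

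Mylip encodes a ubiquitin ligase that marks lipoprotein receptors for breakdown, and its gene answers to the oxysterol receptor LXR rather than to SREBP2. It measured 5.04, 7.48, 7.13, 3.98 and 5.69 CPM on chow, 5.91, 5.71, 7.64, 9.07 and 8.96 on the high-fat diet and 6.73, 7.83, 9.96, 9.75 and 8.52 on the ketogenic diet. Chow replicate 18 was its lowest library, where it was the highest for the enzymes. It rose by 0.54 ± 0.17 on the ketogenic diet against chow (adjusted p = 0.0264), a call lost without any of 5 libraries (adjusted p 0.0537 to 0.0662). Stard4, a carrier that moves sterol between membranes, ranged from 85.4 to 129.7 CPM over the 15 libraries and passed in no comparison. Npc1l1, a sterol transporter found mainly in the gut of mice, had 4 reads in the chow libraries together, 2 in the high-fat libraries and 0 in the ketogenic libraries, too few to compare.

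Levels can be set beside each other between genes only per length, as TPM, in which each count is divided by the effective length of its transcript. On chow the highest were Fdps at 342 TPM, Sc5d at 263, Ebp at 189, Insig1 at 184 and Hmgcs1 at 178, on average over the 5 libraries. Toward the low end stood Srebf2 at 9.40, Mvk at 7.74, Ggps1 at 5.63, Mylip at 1.93 and Npc1l1 at 0.0058 TPM. Neighbours such as Ebp, Insig1 and Hmgcs1 overlapped in their spread.

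**Figure D5:**
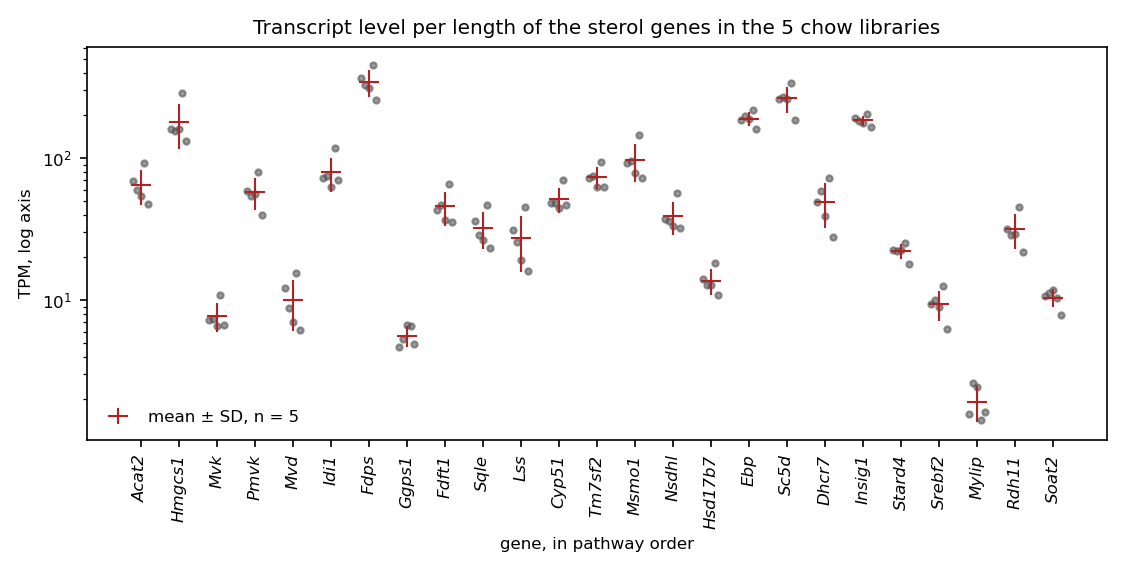
TPM (y axis, log scale) of the 25 genes tested, in pathway order, in the 5 chow libraries (points) with mean ± SD in red. Means span from 342 TPM for Fdps to 1.93 for Mylip.

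Among genes around the pathway, all 4 that supply cytosolic acetyl-CoA (Acly, Acss2, Slc25a1 and Aacs) fell on the ketogenic diet against chow, where 14.6% of all genes fell, and all but Aacs fell on the high-fat diet, where 7.32% did. Acly, which splits citrate into acetyl-CoA, went from 674 ± 213 CPM on chow to 263 ± 75.4 on the high-fat diet and 159 ± 25.8 on the ketogenic diet (SD, n = 5), with log2 fold changes against chow of -1.36 ± 0.23 (adjusted p = 0.00219) and -2.09 ± 0.24 (adjusted p = 2.13e-05). Acss2, which makes acetyl-CoA from acetate, fell by 1.69 ± 0.23 on the ketogenic diet (adjusted p = 1.08e-04) and had a log2 fold change of -1.14 ± 0.23 on the high-fat diet (adjusted p = 0.00548).

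Of 10 genes that process or retain SREBPs, 3 rose and 3 fell on the ketogenic diet against chow (16.2% and 14.6% of all genes), and 2 rose on the high-fat diet (8.3% of all genes) while 8 did not pass. Insig2, the other Insig gene, went the opposite way to Insig1: it rose from 224 ± 44.1 CPM on chow to 322 ± 50.6 on the high-fat diet and 505 ± 47.6 on the ketogenic diet (SD, n = 5), by 0.53 ± 0.13 (adjusted p = 0.00986) and 1.18 ± 0.13 (adjusted p = 3.1e-06). Ube2g2, a ubiquitin-conjugating enzyme of the endoplasmic reticulum, rose by 0.71 ± 0.059 on the ketogenic diet (adjusted p = 7.58e-08) and by 0.38 ± 0.059 on the high-fat diet (adjusted p = 4.30e-04). Srebf1, the related factor for fat synthesis, fell by 1.02 ± 0.19 on the ketogenic diet (adjusted p = 8.27e-04).

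Of 8 genes of LXR and sterol efflux, 3 rose and 2 fell on the ketogenic diet against chow (16.2% and 14.6% of all genes), and 3 rose and 1 fell on the high-fat diet (8.3% and 7.32%). Abcg5, a subunit of the canalicular sterol exporter, rose by 0.71 ± 0.081 and 0.42 ± 0.081 (adjusted p = 3.26e-06 and 0.00244), and its partner Abcg8 rose by 0.61 ± 0.11 on the ketogenic diet (adjusted p = 3.84e-04). Scarb1, the receptor that takes up cholesteryl esters from high-density lipoprotein, rose by 0.64 ± 0.085 and 0.46 ± 0.085 (adjusted p = 1.5e-05 and 0.00152). Lpcat3, which puts polyunsaturated chains into membrane phospholipids, fell by 0.52 ± 0.096 on the high-fat diet (adjusted p = 0.00174) and by 0.47 ± 0.096 on the ketogenic diet (adjusted p = 0.00112). Of 9 genes that move sterol within cells, 2 rose on the ketogenic diet against chow (16.2% of all genes) and 3 were higher there than on the high-fat diet (13.1% of all genes). The latter included Lipa, the lysosomal lipase for cholesteryl esters, at 336 ± 27.1 CPM (ketogenic), 215 ± 25.3 (high-fat) and 254 ± 21.8 (chow; SD, n = 5). The 12 genes that use isoprenoids for other products gave 2 rises and 2 falls on the ketogenic diet against chow and 1 rise on the high-fat diet, close to the shares over all genes (16.2%, 14.6% and 8.3%).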

How the data were processed

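Liver RNA was measured in 15 libraries, 5 per diet, grouped by the diet label and title. The treatment label names the ketogenic diet for all 15, chow and high-fat included, and was not used. Per the submitters' processing notes, the tools were Trimmomatic 0.36, kallisto 0.44 and edgeR 3.28 and the build was GRCm38.p6. Their settings, the strandedness and the annotation release are not stated in the sources used here. The deposited tables hold 1 line per transcript (106332) with the authors' estimated count, the reads kallisto assigned, which need not be whole, and TPM, per the file headers.

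Estimated counts were summed per gene with GENCODE M21 (105734 transcripts matched to 25731 genes) and rounded. The 598 unmatched transcripts (0.184 to 0.223% of reads) were dropped. Genes were kept by filterByExpr (minimum count 10, total 15), and all 15 libraries entered 1 fit in edgeR 4.0.16, with TMM scaling, robust quasi-likelihood dispersions and 12 residual degrees of freedom. Pairs of diets were compared by the quasi-likelihood F test, two-sided, with Benjamini-Hochberg adjustment over 13967 genes and a threshold of 0.05. The code was tested on simulated data. The labels give no batch and no replicate number that recurs between diets, so the fit had no block. Chi-square per degree of freedom between replicates was 18.4 to 111 over 30 pairs, so none were the same library and replicates differed by more than counting error. TPM served to set genes beside each other, to sum enzymes in the high-fat libraries, for transcript shares, and for the effective-length alternative. Shared sequence was the share of a gene's 31-base words found in transcripts of other genes.

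The genes, lists and tests were chosen with earlier results of these data known. All 26 genes are named, with values per library for those that passed or set the pattern, and up to 3 genes per comparison from each other list by the smallest adjusted p. Alternatives were DESeq2 1.42.0, other scalings and filters, an offset for effective length, a fit of the compared diets alone, and leaving out each library in turn. The proteins were not analysed here. Other software was R 4.3.3, limma 3.58.1, Python 3.11.15, pandas 2.3.3, numpy 2.4.6 and matplotlib 3.10.9.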

Additional observations from a re-analysis of the deposited data

Results flagged for a closer look

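Over 75 groups of 5 libraries (25 genes in 3 diets), Dixon's test set 9 libraries' values apart from their diet, where chance gives about 1 in 20, and the genes are not independent. Of these, 8 belong to ketogenic replicate 6, each the highest of its diet. In that library Pmvk had 37.7 CPM where the next ketogenic library had 28.5, Mvd had 17.3 against 11.7, and Fdft1 had 178 against 123. Sqle had 116 against 83.2, Lss 76.5 against 52.0 and Cyp51 261 against 202 CPM. Dhcr7 had 103 against 79.8, and Insig1 had 356 against 231 CPM. The remaining value was Hmgcs1 in chow replicate 18, at 787 CPM where the next chow library had 510.4. Ketogenic replicate 6 was the deepest ketogenic library, and chow replicate 18 ranked 4 of 5; the part of depth in these values was not tested.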

How the results depend on the processing

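Across 22 alternatives, 15 of them leaving out 1 library, no call changed direction; 17 of 27 called results of the sterol genes kept their call throughout, and 26 of 75 results changed sides at least once. Of the 12 counts of genes called, 9 moved by more than 1.5 times under some alternative, the sterol genes lower on the ketogenic than on the high-fat diet under 12 of 22; the cause was not tested. Leaving out 1 library at a time gave 5 to 9 sterol genes lower on the ketogenic diet than on chow, 6 to 13 lower and 0 to 1 higher on the high-fat diet than on chow, and 4 to 10 higher and 0 to 4 lower on the ketogenic than on the high-fat diet; all genes lower on the high-fat diet than on chow ran from 681 (without chow replicate 15) to 1313 (without high-fat replicate 9). With total-count scaling, 1265 genes were lower on the ketogenic diet than on chow (2038 with TMM) and 960 than on the high-fat diet (1818 with TMM), with 10 sterol genes higher and 0 lower in the latter. With the effective-length offset, 744 genes were higher on the high-fat diet than on chow (1159 without it). Srebf2, the sterol gene higher there, did not pass with that offset or in the fit of the 2 diets alone, leaving 0 in edgeR (adjusted p = 0.0842 and 0.0516), while DESeq2 called it. Ebp, the gene lower on the ketogenic than on the high-fat diet, did not pass with no filter or in the fit of those diets alone (0 lower in edgeR, adjusted p = 0.0886 and 0.0643), and DESeq2 gave 2 lower, with Rdh11 added. Idi1 passed for the ketogenic diet against chow only in the fit of those diets alone (adjusted p = 0.0443). No paired analysis was possible because the replicate numbers never recur between diets.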

Other observations

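The transcript make-up of Srebf2 and Rdh11 differed in mean between diets, given as a description with no test. Such differences were not particular to them. In the enzyme gene Dhcr7 the 2556-base transcript held 83.1 ± 10.6%, 72.8 ± 5.35% and 69.4 ± 10.8% on chow, high-fat and ketogenic diets (SD, n = 5). The 5077-base transcript of Srebf2 held 63.1 ± 4.19% of the gene's TPM on chow, 65.2 ± 4.16% on the high-fat diet and 71.2 ± 4.03% on the ketogenic diet (SD, n = 5). The 1673-base transcript of Rdh11, the shorter of its main pair, held 11.1 ± 6.4%, 19.9 ± 6.11% and 23.6 ± 6.09% in the same order. Insig1 kept 89.8 to 91.5% of its TPM in its 2697-base transcript on average in each diet. Tmem97, a sterol-responsive membrane protein outside the set, was higher on the ketogenic than on the high-fat diet (adjusted p = 0.0101). It measured 75.9 ± 2.89 CPM and 54.9 ± 10.3 CPM in that order (SD, n = 5). Aldoc, the other gene listed with it as sterol-responsive, passed in no comparison (adjusted p 0.481 to 0.860).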
